A study of Mus musculus with 6 samples.

Results

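The genes described here encode the proteins that open replication origins and copy DNA at the fork in dividing cells. They are 54 genes chosen by name for their known roles, and each was found by matching its symbol to the deposited expression table. All 54 were listed among 15824 genes, and all 54 passed the filter on low counts that left 11817 genes for testing. Per the labels, the libraries came from alveolar macrophages, the resident phagocytes of the lung airspaces, obtained by flow sorting of lung from 8-week-old mice. One group of 3 libraries was labelled WT and the other group of 3 was labelled Men1 KO. Men1 encodes menin, a nuclear scaffold protein that joins histone methyltransferase complexes, and the study asked which genes depend on it in macrophages. Neither the allele, nor the promoter behind the deletion, nor the sex of the animals is stated in the labels. They do not say either whether each library is a different animal, and the p-values therefore reflect only library-to-library spread, which may be technical.

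Replication starts in 2 stages. Before S phase the origin recognition complex (ORC), CDC6 and CDT1 load the ring-shaped MCM helicase onto DNA, and in S phase the kinase CDC7 with its partner DBF4 helps to turn that ring into the active CMG helicase, made of CDC45, MCM and GINS. Polymerase alpha-primase lays primers, polymerases epsilon and delta extend the leading and lagging strands, the clamp PCNA holds polymerases on DNA, and ribonucleotide reductase and thymidylate enzymes supply the building blocks. Many of these genes are classic targets of E2F transcription factors, and alveolar macrophages are known to renew themselves by local division.

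The deposited estimated counts totalled 19955232 to 20151985 per library. Men1 itself was counted 639, 594 and 603 times in the WT libraries, given here in the order 1, 2, 3, and 150, 149 and 165 times in the KO libraries. It was lower in KO (log2 fold change -1.93, SE 0.0684, adjusted p = 7.24e-24 by the quasi-likelihood test of edgeR, adjusted by Benjamini-Hochberg). Libraries of a group lay close together: the biological coefficient of variation was 1.66%, and 69.2% of all tested genes passed an adjusted p of 0.05. The 4 Y-linked genes that were measured reached 283 counts or more in all WT libraries but never exceeded 2 in any KO library, so genotype and whatever differs with the Y chromosome cannot be told apart. All 10 fibroblast and smooth muscle markers were lower in KO, with a summed level of 93.0 to 96.2 CPM (counts scaled to library size) in WT and 16.7 to 19.2 in KO. Of 6 monocyte markers 4 rose and 2 fell, and their sum went from 59.2 to 60.4 CPM in WT to 117 to 122 in KO. General macrophage markers were abundant in every library. Their sum over 9 genes was 27858.3 to 29002.5 CPM in WT and 32842.2 to 33617.4 in KO, with 7 higher and none lower. Of the 18 markers typical of alveolar macrophages 3 were not in the table. Another 4, including Fabp1 and Ear1, stayed under 1 CPM on average in both groups. The alveolar sum was 4265 to 4322 CPM in WT and 4795 to 4853 in KO, with 6 genes lower and 4 higher. Its most abundant genes were Lpl (1982 CPM in WT and 1776 in KO) and Fabp5 (1395 and 1473). Marco rose from 172 to 1137, which is more than the whole sum rose. Ctsk fell from 519 to 273 and Atp6v0d2 from 119 to 60.8. The 6 lower genes were Lpl, Ctsk, Atp6v0d2, Itgax, Pparg and Siglecf, and the 4 higher were Marco, Fabp5, Chil3 and Trim29. The summed levels of 3 further immune lists were also higher in KO, each through 1 or 2 genes. Neutrophil markers summed to 73.4 to 76.7 CPM against 37.8 to 42.1, nearly all of it S100a8 (37.9 ± 2.04 CPM in WT and 71.0 ± 1.82 in KO), while Mpo fell and Retnlg, Camp, Ltf and Elane averaged under 1 CPM in both groups. T and NK cell markers summed to 10.2 to 10.8 CPM against at most 2.40, most of it Cd4 and Klrb1c, with Cd3e, Cd3d, Cd3g, Cd8a, Nkg7 and Ncr1 under 1 CPM in both groups. B cell markers summed to 9.42 to 10.9 CPM against 6.88 to 7.31, most of it Cd79b. Siglecf, a surface lectin used to sort these cells, averaged 2.06 ± 0.381 CPM in WT and 1.34 ± 0.154 in KO (SD, n = 3 each). Chil3, another alveolar marker, averaged 6.94 ± 0.349 CPM in WT and 13.9 ± 0.676 in KO. Several alveolar markers were thus low or not listed, and the cell type is taken from the labels alone. The part of these marker differences in the results below was not tested.

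The replication genes moved in both directions and mostly by little. A gene is called lower or higher here when its adjusted p was under 0.05 in the edgeR test over all genes, with positive values meaning higher in KO. By that rule 24 of 54 (44.4%) fell, where 34.9% of all tested genes fell, and 16 (29.6%) rose, where 34.4% of all tested genes rose. The 40 called members made up 74.1% of the list, near the 69.2% of all genes. Over all 54 genes the median log2 fold change was -0.05, against 0.00 over all genes, and their median absolute log2 change was 0.19, against 0.24. Of the falls, 4 reached 1.5-fold: Rrm2, Dbf4, Tyms and Cdc7, or 7.41% of members beside 9.39% of all genes. Timeless was the 1 member to rise by that much, or 1.85% beside 8.4%. Only Rrm2 fell by 2-fold or more (1.85% of members), beside 4.94% of all genes. In 36 of the 54 genes (66.7%) the CPM ranges of the groups did not overlap, beside 71.2% of all genes. In bulk RNA such as this, fewer cycling cells and less of an RNA per cell cannot be told apart.

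The balance of falls and rises depended on the scale. On the authors' TPM values, which scale each library to a fixed total after dividing by gene length, the median of all genes shifted by -0.12 on the log2(TPM + 1) scale, and limma called 35 members lower and 5 higher (48.9% and 20.8% of all genes). The small rises of Mcm2, Mcm3, Mcm5, Pola2 and Pole turned slightly negative there. After subtracting the shift of all genes, each of the 40 called members kept its sign. TPM differences below are given before that subtraction unless stated, so a value near -0.12 equals the shift of all genes. With the biological coefficient of variation set to 0.1, a spread more usual between animals, 11 members stayed lower and 4 higher, beside 18.8% and 18.4% of all genes. The 11 were Orc2, Cdc7, Dbf4, Gins3, Pola1, Pcna, Rrm1, Rrm2, Tyms, Dut and Clspn, and the 4 were Mcm7, Pold1, Pole2 and Timeless. All of these but Pole2 were called in the same direction in each of the 20 analysis settings that tested them. Pole2 missed the call on the TPM scale (adjusted p = 0.0542), and Pola1, an X-linked gene, was left out of the setting without X and Y genes.

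**Figure D1:**
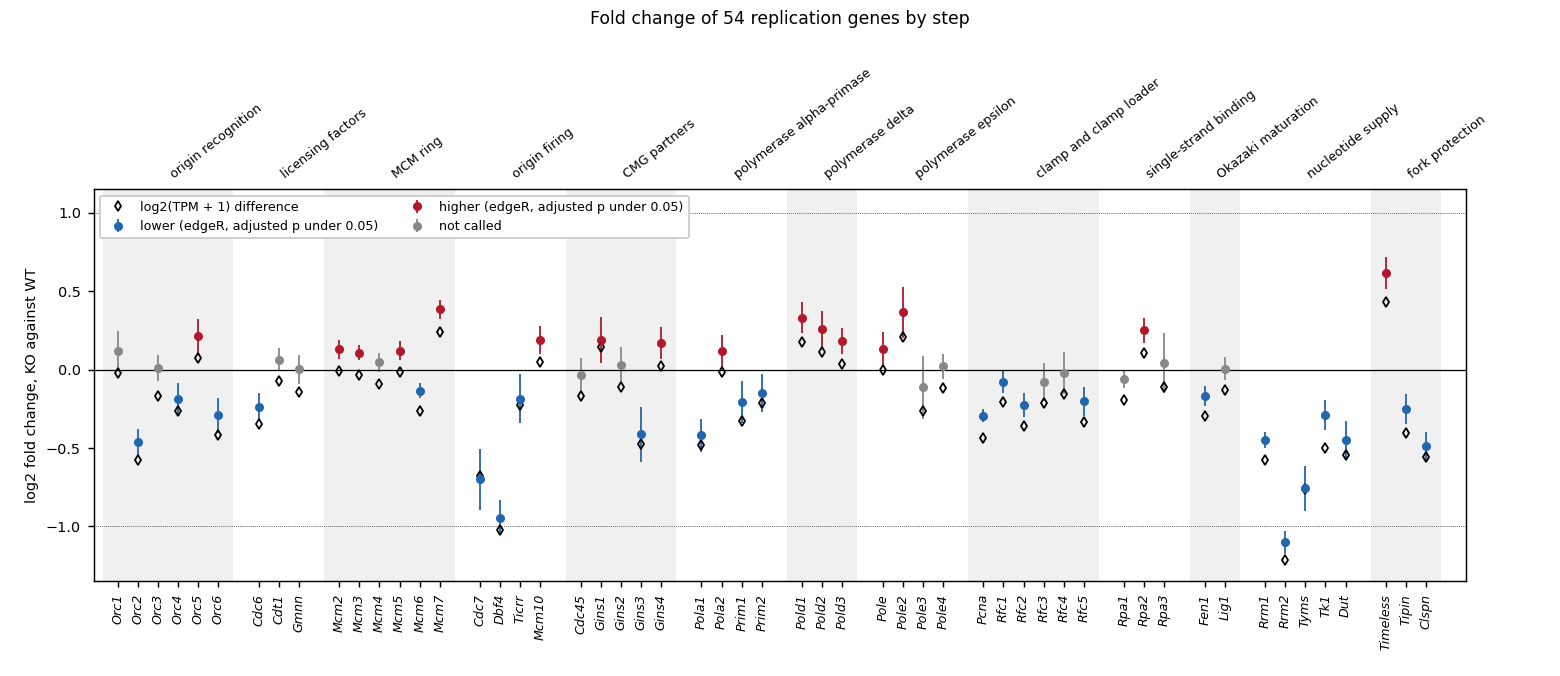
Log2 fold change of each of the 54 genes, KO against WT, grouped by step of replication; filled points are the edgeR estimates with bars of 1.96 SE either way (blue lower, red higher, grey not called), and open diamonds are differences of mean log2(TPM + 1). All 5 nucleotide supply genes lie below 0 on both scales, the polymerase delta genes lie above 0 on both, and Mcm2, Mcm3 and Mcm5 lie above 0 by edgeR and just below it on the TPM scale.

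E2F-type letters were present in many promoters of the list, in genes that fell, rose and were not called. RefSeq promoter windows of 300 bases (250 before the transcription start and 50 from it on, build GRCm38.p6) were available for 45 of the 54 genes, 55 windows in all since some genes have several starts, and were searched on both strands. The E2F-type letters were TTTCCCGC, TTTGGCGC, TTTCGCGC and TTTGCCGC, the CHR letters (the cell cycle homology region typical of G2 and M phase genes) were TTTGAA and TTCGAA, and the NF-Y letters were CCAAT. Matches of E2F letters on opposite strands can overlap, as in Mcm6. The upstream 250 bases of 5 genes are shown, with matches in capitals: Mcm6 (the ring gene that fell, with 3 E2F matches), Gins3 (fell, E2F and CHR), Rfc3 (not called, E2F and CHR), Mcm2 (a ring gene without E2F letters) and Rrm2 (the largest fall, CCAAT alone). These examples were chosen after their values were seen. Positions are counted from the start base as 0. The Mcm6 window (chr1:128359706-128359955, minus strand) has E2F letters at -110, -106 and -47 and CCAAT on the reverse strand at -57 and -14. In Gins3 (chr8:95633309-95633558, plus strand) the E2F letters lie at -41 and the CHR letters at -28. Rfc3 (chr5:151651209-151651458, minus strand) has E2F letters at -10, and a second match begins at the start base, beyond the stretch shown. Mcm2 (chr6:88898781-88899030, minus strand) holds CHR letters at -70 and CCAAT at -175. Rrm2 (chr12:24708004-24708253, plus strand) holds CCAAT at -50.
Mcm6: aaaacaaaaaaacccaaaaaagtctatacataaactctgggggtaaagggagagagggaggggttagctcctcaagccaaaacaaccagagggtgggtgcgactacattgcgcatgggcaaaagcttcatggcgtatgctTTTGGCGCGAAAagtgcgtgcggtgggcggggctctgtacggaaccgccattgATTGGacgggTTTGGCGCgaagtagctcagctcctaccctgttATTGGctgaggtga
Gins3: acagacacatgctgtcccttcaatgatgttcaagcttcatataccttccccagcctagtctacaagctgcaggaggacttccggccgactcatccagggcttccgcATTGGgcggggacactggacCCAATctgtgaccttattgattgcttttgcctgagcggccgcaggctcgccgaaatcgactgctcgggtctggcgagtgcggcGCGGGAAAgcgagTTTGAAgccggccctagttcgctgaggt
Rfc3: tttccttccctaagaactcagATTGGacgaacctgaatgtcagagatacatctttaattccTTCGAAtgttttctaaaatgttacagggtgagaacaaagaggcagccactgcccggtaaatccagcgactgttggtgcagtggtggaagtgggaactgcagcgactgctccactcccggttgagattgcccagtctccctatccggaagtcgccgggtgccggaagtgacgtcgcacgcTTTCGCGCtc
Mcm2: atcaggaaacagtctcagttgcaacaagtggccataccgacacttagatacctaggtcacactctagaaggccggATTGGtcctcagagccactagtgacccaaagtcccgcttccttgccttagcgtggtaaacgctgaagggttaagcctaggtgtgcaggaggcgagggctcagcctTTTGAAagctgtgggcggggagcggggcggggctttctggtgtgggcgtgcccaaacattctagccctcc
Rrm2: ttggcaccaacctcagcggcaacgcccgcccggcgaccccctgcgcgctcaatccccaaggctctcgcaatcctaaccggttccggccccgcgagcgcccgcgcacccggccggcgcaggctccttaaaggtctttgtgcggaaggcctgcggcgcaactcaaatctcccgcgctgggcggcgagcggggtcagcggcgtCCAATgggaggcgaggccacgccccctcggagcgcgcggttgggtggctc

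Counted by gene, with a match in any of its windows, E2F letters were found for 17 of the 45 genes (37.8%), against 4.81% of the 9537 tested genes with a window. CHR letters were found for 9 genes (20%), against 16.7% of tested genes, and CCAAT for 25 (55.6%), against 43.3%. Counted by window, E2F letters were in 18 of the 55 member windows (32.7%). The shares were 3.99% of the 12167 windows of tested genes and 2.26% of all 32851 windows. By the same count CHR letters were in 10 member windows (18.2%), against 14.1% for tested genes and 19.2% of all windows. CCAAT was in 27 (49.1%), against 37.9% and 37.4%. Among 18 G2 and M phase genes used for comparison, 1 had E2F letters (5.56%) and 14 had CHR letters (77.8%). Some windows begin inside the annotated gene; over the 34 members whose window starts within 50 bases of the gene start, the E2F share was 32.4%, against 4.46% of tested genes treated the same way. E2F letters were in 5 of 21 members that fell (23.8%), 6 of 13 that rose (46.2%) and 6 of 11 that were not called (54.5%). The median log2 fold change was 0.02 over the 17 members with the letters and -0.18 over the 28 without. Over all tested genes the same medians were -0.02 with the letters (n = 459) and 0.00 without. A match describes letters in a window and does not show binding, and a window without a match says nothing about the factor.

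**Figure D2:**
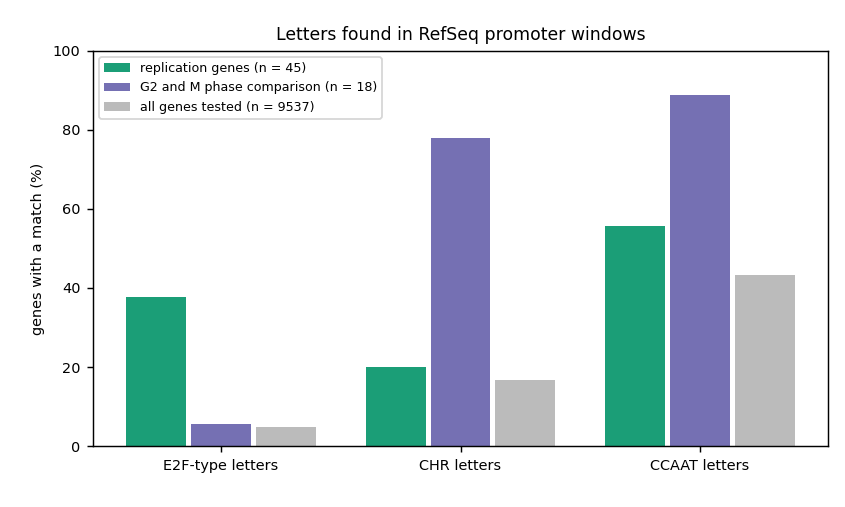
Share of genes (percent, vertical axis from 0) with a 300-base RefSeq promoter window that holds E2F-type, CHR or CCAAT letters on either strand; bars are the replication genes (n = 45), the G2 and M phase comparison genes (n = 18) and all tested genes with a window (n = 9537). E2F letters are most frequent in the replication genes (37.8%) and CHR letters in the G2 and M phase genes (77.8%).

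In nucleotide supply all 5 genes fell, beside 34.9% of all tested genes. Their median log2 fold change was -0.45, the lowest of the 13 steps but close to origin firing (-0.44). None of their WT and KO ranges overlapped, as was so for 71.2% of all tested genes. Rrm2 encodes the small subunit of ribonucleotide reductase, whose level limits the enzyme in S phase (gene identifier 20135, chr12:24708254-24714146, GRCm38.p6; its promoter stretch is shown above). It had 1945, 1863 and 1954 counts in WT and 827, 869 and 888 in KO. Every KO library was below every WT library, and the fall was 2.14-fold (94.1 ± 2.21 to 43.9 ± 1.69 CPM, SD, n = 3 each; log2 fold change -1.10, SE 0.0370, adjusted p = 1.44e-24 by edgeR). Rrm1, the large catalytic subunit of the same enzyme, went from 3634, 3630 and 3618 counts to 2566, 2535 and 2580. Its fall was 1.36-fold (log2 fold change -0.45, SE 0.0258, adjusted p = 1.74e-17 by edgeR). Both subunits thus fell, by unequal amounts.

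Tyms, thymidylate synthase, makes thymidylate from deoxyuridylate (gene identifier 22171, chr5:30038546-30073645). It had 372, 354 and 412 counts in WT and 220, 204 and 224 in KO, 1.69-fold lower (log2 fold change -0.76, SE 0.0729, adjusted p = 2.1e-11 by edgeR). A Tyms pseudogene exists that the expression table does not list, and the labels do not state how its reads were counted. Dut, which removes deoxyuridine triphosphate and yields the precursor for thymidylate synthase, went from 410, 420 and 424 to 282, 311 and 290 counts (1.37-fold lower, adjusted p = 1.02e-07 by edgeR). Tk1, the cytosolic thymidine kinase of the salvage route, went from 720, 725 and 800 to 615, 591 and 562 (1.22-fold lower, adjusted p = 4.07e-06 by edgeR). Tk1 overlaps its neighbour Afmid by 585 bases. The Tk1 call was lost with the coefficient of variation set to 0.1, and the calls of the other 4 genes of the step were kept.

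**Figure D3:**
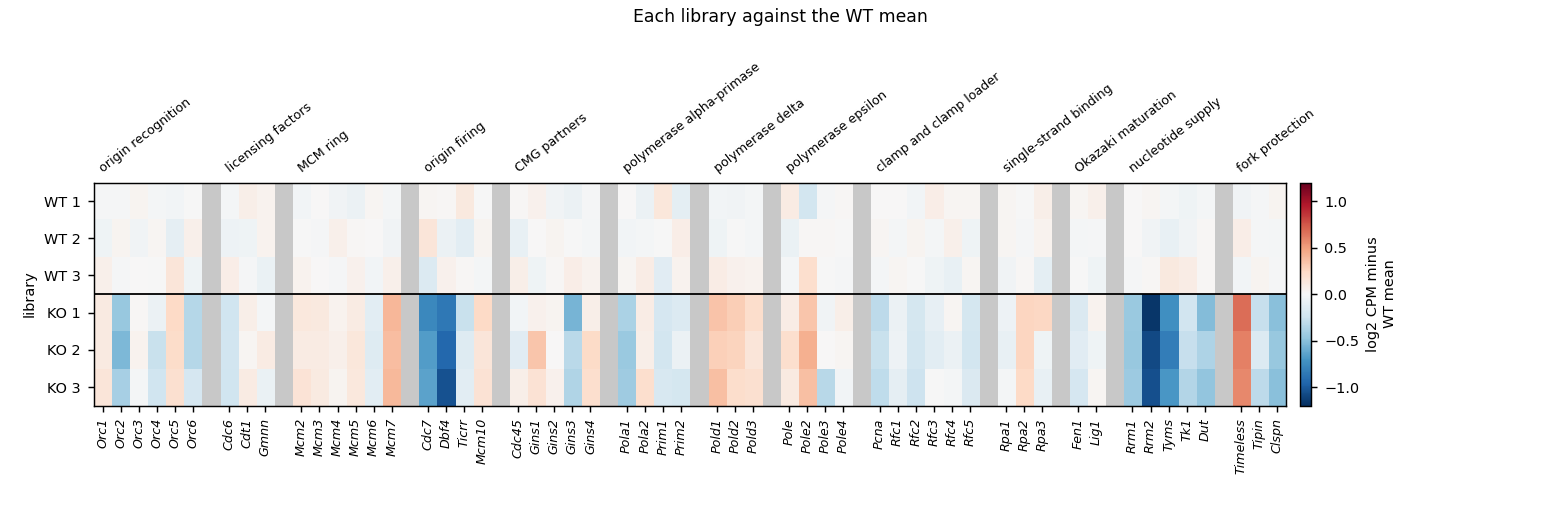
Heat map of the 54 genes (columns, grouped by step) in each of the 6 libraries (3 WT above, 3 KO below); colour is log2 CPM minus the WT mean of that gene, blue lower and red higher. The 3 KO libraries look alike in Rrm2, Tyms, Dbf4 and Cdc7 (all blue) and in Timeless and Mcm7 (all red).

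The kinase that fires origins fell in both of its subunits. Dbf4, the activating subunit (gene identifier 27214, chr5:8396969-8422725), had 719, 678 and 744 counts in WT and 381, 357 and 333 in KO. It was 1.92-fold lower (log2 fold change -0.94, SE 0.0558, adjusted p = 3.64e-17 by edgeR), the largest fall after Rrm2. Cdc7, the catalytic subunit (gene identifier 12545, chr5:106964315-106984440), had 203, 221 and 179 counts in WT and 113, 121 and 123 in KO. It was 1.62-fold lower (log2 fold change -0.70, SE 0.0991, adjusted p = 1.16e-07 by edgeR), and the groups were apart in both genes. Mcm10, which helps the assembled helicase to start unwinding, had 649, 666 and 647 counts in WT and 747, 694 and 709 in KO (log2 fold change 0.19, adjusted p = 0.000525 by edgeR). On the TPM scale its difference was 0.05 (adjusted p = 0.344 by limma). Ticrr, or treslin, which brings CDC45 to the ring, ranged from 230 to 273 counts in WT and from 203 to 222 in KO, with overlapping CPM ranges. Its call was marginal (log2 fold change -0.19, adjusted p = 0.04 by edgeR). It was lost without WT library 1 (adjusted p = 0.216), WT library 3 (0.0862), KO library 1 (0.157) or KO library 2 (0.0603).

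Within the origin recognition complex, which marks origins, 3 subunits fell, 1 rose and 2 were not called. Orc2 had 975, 1007 and 982 counts in WT and 697, 653 and 720 in KO, 1.38-fold lower (log2 fold change -0.46, SE 0.0437, adjusted p = 1.31e-11 by edgeR). Orc6, the smallest subunit, went from 535, 558 and 519 to 409, 407 and 450 (log2 fold change -0.29, adjusted p = 2.44e-05 by edgeR), and the groups were again apart. Orc4 fell by 0.19 on the log2 scale (adjusted p = 0.00208 by edgeR). Orc5 went the other way, from 529, 500 and 601 counts to 618, 606 and 595 (log2 fold change 0.21, adjusted p = 0.000801 by edgeR), and on the TPM scale its difference was 0.08 (adjusted p = 0.26 by limma). Orc1, the subunit whose protein is cycle-regulated, had 310, 301 and 329 counts in WT and 325, 324 and 333 in KO and was not called (adjusted p = 0.105 by edgeR), although its CPM ranges did not overlap. Orc1 and Orc4 overlap the neighbours Prpf38a and Mbd5 by 3632 and 3404 bases. Orc3 had a log2 fold change of 0.01 by edgeR and -0.17 on the TPM scale.

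Of the 3 licensing factors 1 fell and 2 were not called. Cdc6, the ATPase that loads the ring together with ORC, had 784, 763 and 843 counts in WT and 650, 651 and 650 in KO. It was 1.18-fold lower, with no overlap of the groups (log2 fold change -0.24, SE 0.0461, adjusted p = 2.73e-05 by edgeR). Cdt1, the other loader, ranged from 1259 to 1373 counts in WT and from 1283 to 1352 in KO (log2 fold change 0.06, adjusted p = 0.123 by edgeR). Without WT library 1 Cdt1 did pass (log2 fold change 0.10, adjusted p = 0.03). Gmnn, or geminin, the inhibitor of CDT1, ranged from 823 to 893 counts in WT and from 790 to 893 in KO, and its log2 fold change was 0.00 by edgeR and -0.14 on the TPM scale. The groups overlapped in both Cdt1 and Gmnn.

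The 6 ring genes Mcm2 to Mcm7 encode subunits that work in equal number in the ring, and their changes were not equal. Mcm7 (gene identifier 17220, chr5:138164583-138172111) had 1802, 1768 and 1922 counts in WT and 2333, 2268 and 2297 in KO. It was 1.31-fold higher (log2 fold change 0.38, SE 0.0312, adjusted p = 2.39e-13 by edgeR), and the rise was 0.24 on the TPM scale (adjusted p = 0.000105 by limma). Mcm7 hosts the intronic miRNA genes Mir25, Mir93 and Mir106b and overlaps Ap4m1 by 91 bases. Mcm6 went down, from 4165, 4122 and 4042 counts to 3641, 3545 and 3617 (log2 fold change -0.13, SE 0.0247, adjusted p = 1.13e-05 by edgeR). Mcm2, Mcm3 and Mcm5 rose by 0.13, 0.11 and 0.12 on the log2 count scale (adjusted p = 0.000356, 0.000325 and 0.000544 by edgeR), but were at -0.01, -0.03 and -0.02 on the TPM scale and missed the call on log2(FPKM + 1). Mcm4 was not called (log2 fold change 0.05, adjusted p = 0.176 by edgeR). It passed without WT library 2 (0.08, adjusted p = 0.049), and on the TPM scale its difference was -0.09.

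The partners of the ring in the active helicase were also uneven. Gins3 had 200, 209 and 223 counts in WT and 138, 161 and 158 in KO, 1.33-fold lower (log2 fold change -0.41, SE 0.0898, adjusted p = 0.00013 by edgeR). Its 3 partners in the 4-part GINS complex were not called lower by edgeR: Gins4 had a log2 fold change of 0.17 (adjusted p = 0.00453), Gins1 of 0.19 (adjusted p = 0.0246) and Gins2 of 0.03 (adjusted p = 0.67), all by edgeR. On the TPM scale Gins4 was at 0.03, Gins1 at 0.14 and Gins2 at -0.11, where the median of all genes was at -0.12. The Gins1 call was lost without WT library 3 (adjusted p = 0.0824) or KO library 2 (0.212). Cdc45, which bridges the ring and GINS, ranged from 537 to 606 counts in WT and from 501 to 579 in KO and was not called (log2 fold change -0.03, adjusted p = 0.613 by edgeR). On the TPM scale Cdc45 was at -0.17 (adjusted p = 0.027 by limma), and at -0.05 after subtracting the shift of all genes. The Gins3 window shown above carries E2F and CHR letters side by side.

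Polymerase alpha-primase makes the RNA-DNA primers. Its catalytic subunit Pola1, on chromosome X, had 560, 547 and 572 counts in WT and 414, 393 and 401 in KO. It was 1.34-fold lower with no overlap (log2 fold change -0.42, SE 0.0538, adjusted p = 1.6e-08 by edgeR). Prim1, the primase catalytic subunit, went from 386, 350 and 322 counts to 296, 290 and 296 (log2 fold change -0.21, adjusted p = 0.00929 by edgeR). Its call was lost without WT library 1 (adjusted p = 0.112). Prim2, the regulatory primase subunit, had a log2 fold change of -0.15 (adjusted p = 0.0354 by edgeR), with overlapping groups. It lost the call without WT library 2 (adjusted p = 0.169), WT library 3 (0.116), KO library 1 (0.088) or KO library 3 (0.155). Pola2, the accessory subunit, had a log2 fold change of 0.12 by edgeR (adjusted p = 0.0377) and -0.02 on the TPM scale. It lost the call without WT library 1 (adjusted p = 0.174), WT library 2 (0.0972) or KO library 3 (0.217).

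Polymerase delta, the lagging strand polymerase, rose in all 3 of its listed subunits. Pold1, the catalytic subunit, had 513, 506 and 561 counts in WT and 645, 615 and 651 in KO. It was 1.26-fold higher (25.8 ± 1.36 to 32.4 ± 0.911 CPM, SD, n = 3 each; log2 fold change 0.33, SE 0.0510, adjusted p = 5.85e-07 by edgeR). Pold2 went from 373, 383 and 401 counts to 458, 445 and 428 (log2 fold change 0.26, adjusted p = 0.000199 by edgeR). Pold3 rose by 0.18 (adjusted p = 0.000287 by edgeR). The groups were apart in each subunit, as in 71.2% of all tested genes. On the TPM scale the differences were 0.18, 0.11 and 0.04, of which the last was not called. Pold4, the smallest subunit and no member of the 54, also rose (log2 fold change 0.68, adjusted p = 4.3e-13 by edgeR).

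Polymerase epsilon copies the leading strand. Its subunit Pole2 had 199, 234 and 267 counts in WT and 282, 299 and 286 in KO, 1.29-fold higher with no overlap (log2 fold change 0.36, SE 0.0816, adjusted p = 0.000175 by edgeR). Pole, the catalytic subunit, had overlapping groups and a log2 fold change of 0.13 by edgeR (adjusted p = 0.0337) and -0.003 on the TPM scale. Its call was lost without WT library 2 (adjusted p = 0.167), WT library 3 (0.0805) or KO library 2 (0.151). The small histone-fold subunits Pole3 and Pole4 were not called (log2 fold changes -0.11 and 0.02, adjusted p = 0.327 and 0.662 by edgeR). On the TPM scale they were at -0.26 and -0.12 (adjusted p = 0.0147 and 0.0107 by limma). After subtracting the shift of all genes (-0.12), Pole3 was at -0.15 and Pole4 at -0.0008.

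The sliding clamp and its loader fell or did not pass. Pcna, the clamp and the most abundant of the 54 transcripts, had 9928, 10049 and 9834 counts in WT and 7693, 7943 and 7745 in KO. It was 1.23-fold lower with no overlap (487 ± 7.10 to 397 ± 7.92 CPM, SD, n = 3 each; log2 fold change -0.29, SE 0.0208, adjusted p = 5.73e-15 by edgeR). Pcna has 2 named pseudogene copies that the table does not list. Among the clamp loader subunits, Rfc2 went from 1192, 1248 and 1222 counts to 1020, 1005 and 988 (log2 fold change -0.23, adjusted p = 2.62e-06 by edgeR). Rfc5 fell by 0.20 (adjusted p = 0.000374 by edgeR). Rfc1, the large subunit, was marginal (log2 fold change -0.08, adjusted p = 0.0443 by edgeR), and its call was lost on leaving out any 1 library except WT library 2 (adjusted p = 0.0583 to 0.165). Rfc3 and Rfc4 were not called (log2 fold changes -0.08 and -0.02, adjusted p = 0.256 and 0.782 by edgeR). On the TPM scale Rfc3 was at -0.21 and Rfc4 at -0.16 (adjusted p = 0.00286 and 0.014 by limma). All 6 genes of the step were called lower there, beside 48.9% of all tested genes. After subtracting the shift of all genes (-0.12), Rfc3 was at -0.09 and Rfc4 at -0.04. The E2F letters shown for Rfc3 stand before a gene whose CPM ranges overlapped between the groups.

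Among the 3 subunits of replication protein A, which coats single-stranded DNA, Rpa2 alone was called. It had 828, 821 and 843 counts in WT and 960, 951 and 942 in KO (1.19-fold higher, log2 fold change 0.25, SE 0.0404, adjusted p = 1.22e-06 by edgeR). The rise was 0.11 on the TPM scale (adjusted p = 0.00488 by limma). Rpa1 had a log2 fold change of -0.06 (adjusted p = 0.0785 by edgeR) and passed without WT library 3 (adjusted p = 0.0352) or KO library 3 (0.0487). On the TPM scale Rpa1 was at -0.19 (adjusted p = 0.000375 by limma). Rpa3 was at 0.04 (adjusted p = 0.72 by edgeR) and at -0.11 on the TPM scale. Of the enzymes that join Okazaki fragments, Fen1, the flap nuclease, went from 1903, 1840 and 1878 counts to 1605, 1640 and 1571 (log2 fold change -0.17, SE 0.0320, adjusted p = 2.15e-05 by edgeR). Lig1, the ligase, was not called (log2 fold change 0.01 by edgeR, adjusted p = 0.879). It was at -0.13 on the TPM scale, and at -0.01 after subtracting the shift of all genes.

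The fork protection genes moved apart. Timeless, which holds helicase and polymerase together with TIPIN (gene identifier 21853, chr10:128232063-128252941), had 453, 494 and 460 counts in WT and 720, 684 and 672 in KO. It was 1.53-fold higher, the largest rise of the 54 (log2 fold change 0.62, SE 0.0513, adjusted p = 4.49e-13 by edgeR), and 0.43 higher on the TPM scale (adjusted p = 6.74e-05 by limma). Tipin, its direct partner, went down from 676, 676 and 703 counts to 546, 587 and 528 (log2 fold change -0.25, SE 0.0496, adjusted p = 3.37e-05 by edgeR). Clspn, or claspin, the adaptor that carries the checkpoint signal from ATR to CHK1, went from 830, 799 and 812 to 554, 568 and 553. It was 1.40-fold lower (log2 fold change -0.49, SE 0.0458, adjusted p = 1.09e-11 by edgeR). In all 3 genes every KO library lay outside the WT range, as in 71.2% of all tested genes.

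Levels per gene length, as the authors' FPKM, spanned a wide range within the list. Pcna stood highest at 536 ± 8.61 FPKM in WT and 419 ± 6.53 in KO, and Ticrr lowest at 1.84 ± 0.155 and 1.56 ± 0.0681 (SD, n = 3 each). The ring genes kept 1 order in both genotypes, from Mcm6 (77.3 FPKM in WT, 67.9 in KO) through Mcm3 (58.2 and 60.3), Mcm7 (43.8 and 54.9), Mcm5 (40.4 and 42.2) and Mcm2 (33.7 and 35.4) to Mcm4 (31.1 and 30.9). No neighbours in that order overlapped in either group. In the origin recognition complex Orc3 was highest (22.5 and 21.1) and Orc1 lowest (5.68 and 5.90), while Orc6 and Orc5 held ranks 2 and 3 in WT (20.5 and 15.6) and changed places in KO (16.0 and 17.4), where their ranges overlapped. Orc5 and Orc2 overlapped in WT (both 15.6) and were apart in KO, with Orc2 at 10.8. Among the whole list Rrm2 moved from rank 5 in WT (52.0 FPKM) to rank 22 in KO (23.3).

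**Figure D4:**
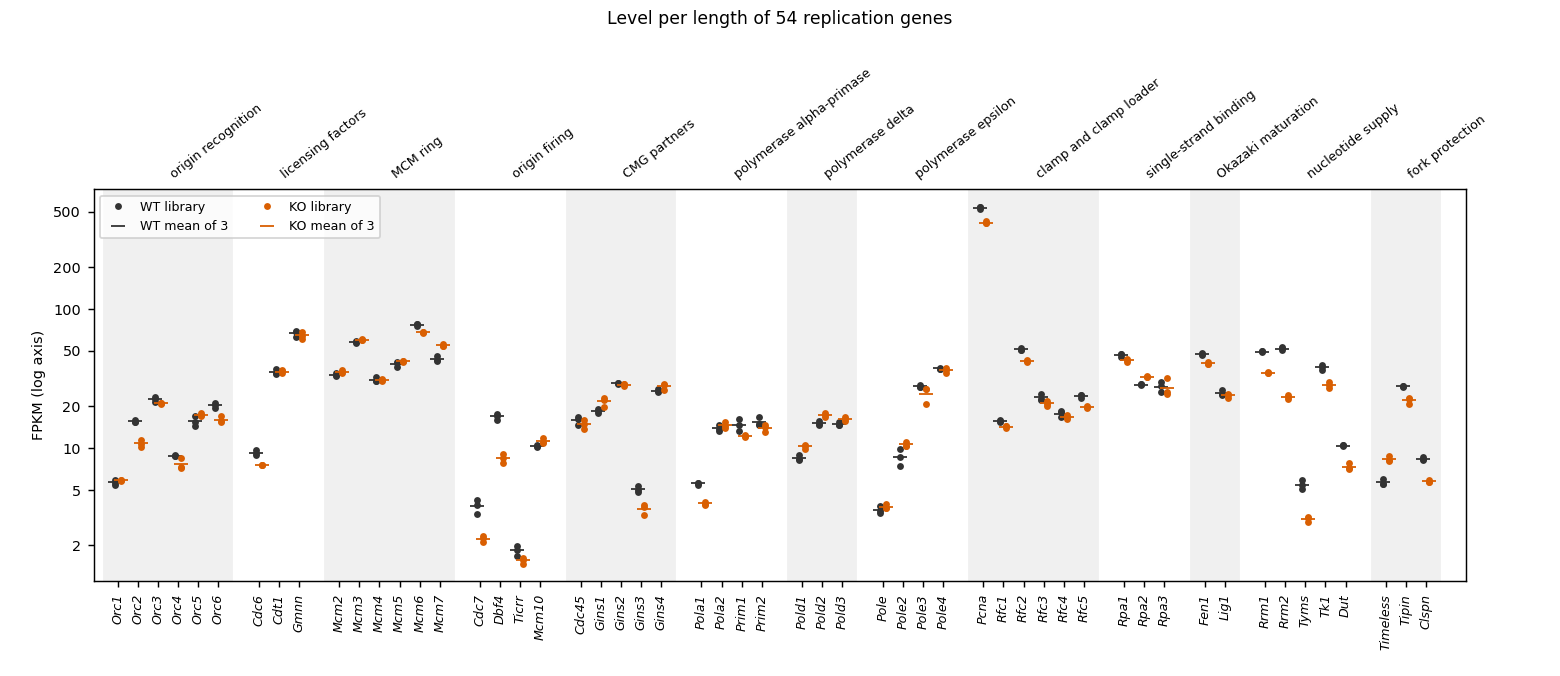
FPKM of each of the 54 genes on a log axis, grouped by step; points are libraries (black WT, orange KO) and short lines are means of 3. Pcna lies far above the rest, and the 2 groups are separate for most genes with the larger changes, such as Dbf4, Rrm2 and Timeless.

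Ratios of FPKM between partner genes do not depend on how a library was scaled, and 6 pairs were compared, chosen after their values were seen. The Timeless to Tipin ratio was 0.203 ± 0.00873 in WT and 0.378 ± 0.0164 in KO (SD, n = 3 each), 1.86 times as high. For Orc5 to Orc2 the ratio went from 1.001 ± 0.104 to 1.61 ± 0.107. Mcm7 to Mcm6 went from 0.566 ± 0.0326 to 0.808 ± 0.00471. Rrm2 to Rrm1 went from 1.05 ± 0.0295 to 0.667 ± 0.0233. In these 4 pairs all KO libraries lay to 1 side of all WT libraries, which gives p = 0.1 in a two-sided exact permutation test, the smallest value that 3 against 3 allows (adjusted p = 0.15 over the 6 pairs). Cdt1 to Gmnn (0.525 ± 0.0313 and 0.551 ± 0.0479) and Dbf4 to Cdc7 (4.47 ± 0.690 and 3.78 ± 0.429) overlapped between groups, with exact permutation p = 0.4 and 0.2. No pair could reach 0.05 in this design.

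There were 10 members on chromosome 5 (18.5%), which holds 6.3% of the tested genes. Of these 10, 6 fell and 3 rose, where 34.9% of all tested genes fell and 34.4% rose. In the annotation 14 members overlap another protein-coding gene, and the labels do not state whether the counting used strand, so reads in those overlaps cannot be told apart.

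Other genes of the same process, from lists of known function, gave a similar mixture where they act at the fork. Over all tested genes, for comparison, 34.9% fell and 34.4% rose by edgeR. On the TPM scale 48.9% of all tested genes fell and 20.8% rose by limma. Of 25 further replisome and origin factors 9 fell (36%) and 7 rose (28%), with a median log2 fold change of -0.06. On the TPM scale 14 of them fell and 3 rose. Top1, the topoisomerase that relieves supercoils ahead of the fork, fell by 0.54 (adjusted p = 6.86e-19 by edgeR). Rif1, which sets replication timing, fell by 0.55 (adjusted p = 2.79e-12 by edgeR). Of 10 chromatin assembly genes 4 fell and 2 rose (median -0.04), with Asf1b, a histone H3-H4 chaperone, down by 0.48 (adjusted p = 1.32e-11 by edgeR); on the TPM scale 8 fell and none rose. Of 9 replication checkpoint genes 4 fell and 2 rose (median -0.13), with Rad17, the loader of the checkpoint clamp, down by 0.43 (adjusted p = 1.8e-09 by edgeR); on the TPM scale 5 fell and none rose.

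Nucleotide genes outside the 5 members did not fall together. Of 19 such genes 7 fell (36.8%) and 9 rose (47.4%), with a median log2 fold change of 0.08. The shares over all tested genes were 34.9% and 34.4%. On the TPM scale 9 fell and 3 rose, beside 48.9% and 20.8% of all tested genes. Samhd1, which breaks down deoxynucleotides in resting cells, had 5495, 5471 and 5471 counts in WT and 7667, 7514 and 7398 in KO. It was 1.43-fold higher with no overlap (log2 fold change 0.51, adjusted p = 1.36e-21 by edgeR). Tk2, the mitochondrial thymidine kinase, rose by 0.80 (adjusted p = 9.64e-17 by edgeR), where Tk1 fell. Shmt1, which feeds folate carbon units to thymidylate synthesis, fell by 0.85 (adjusted p = 1.38e-08 by edgeR).

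The regulators of S phase entry had a lower median than the replication genes. Of 26 E2F, pocket protein and S-phase cyclin-CDK genes 18 fell (69.2%) and 3 rose (11.5%), with a median log2 fold change of -0.32. The shares over all tested genes were 34.9% and 34.4%. On the TPM scale 21 fell and 2 rose, beside 48.9% and 20.8% of all tested genes. Ccna2, cyclin A, had 2053, 2004 and 2010 counts in WT and 722, 726 and 719 in KO, 2.69-fold lower (log2 fold change -1.43, adjusted p = 2.36e-28 by edgeR). Ccne2, a cyclin E, fell by 1.28, Foxm1, a driver of mitotic genes, by 1.29 and E2f2, an activating E2F, by 1.08 (adjusted p = 7.98e-20, 4.27e-22 and 1.16e-21 by edgeR). The 3 rises were E2f1 by 0.41, Rb1 by 0.79 and Rbl2 by 0.21 (adjusted p = 3.47e-10, 1.4e-18 and 3.23e-05 by edgeR). All 20 genes of the G2 and M phase comparison fell (median -1.31), 16 of them by at least 2-fold, against 1 of the 54 replication genes and 4.94% of all tested genes. Mki67, the proliferation marker, went from 4868, 4814 and 4958 counts to 1826, 1807 and 1635. Top2a, the topoisomerase that untangles chromosomes, fell by 1.17, Ccnb1, cyclin B1, by 1.47 and Ccnb2, cyclin B2, by 1.99 (adjusted p = 3.26e-29, 8.01e-28 and 3.02e-26 by edgeR). These lists are described by their counts and medians, and the difference between lists was not tested.

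**Figure D5:**
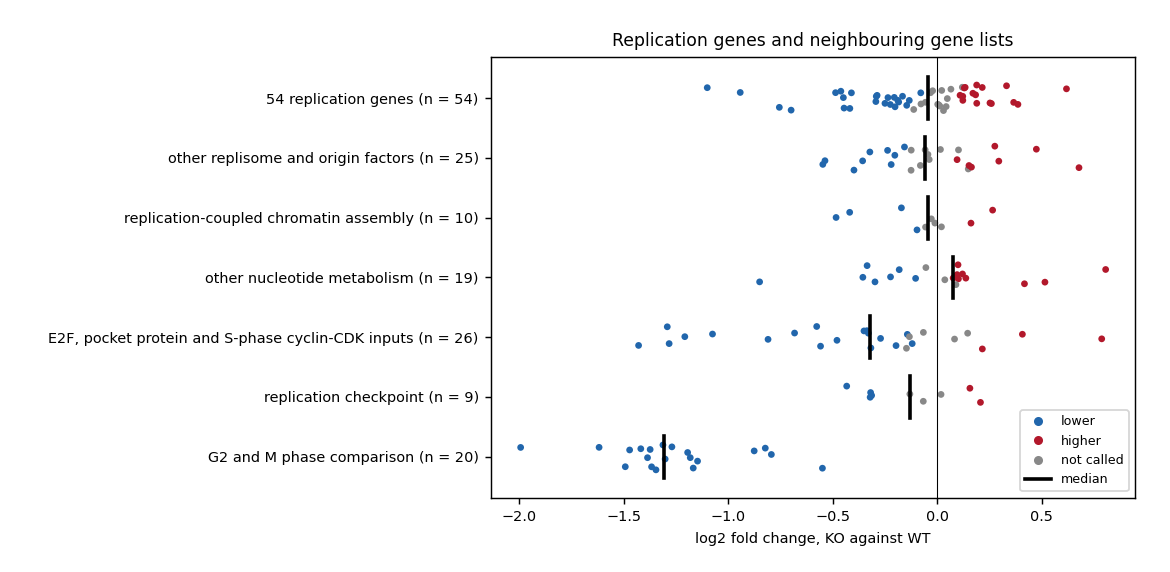
Log2 fold change (edgeR, KO against WT) of each gene in the replication list and in 6 lists of related function; each point is a gene (blue lower, red higher, grey not called) and the black bar is the median. The replication genes centre near 0 (median -0.05), the E2F and cyclin list lies lower (-0.32) and the G2 and M phase genes lie lowest (-1.31).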

How the data were processed

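Polyadenylated RNA of 3 WT and 3 Men1 KO libraries was sequenced, per the labels' protocols. The submitters' processing notes name HISAT, Bowtie2 and build GRCm38.p6. Which counter, strand setting and annotation were used was not given in the sources at hand. The authors deposited estimated counts per gene, which are not whole for 8.66% to 9.19% of genes and were rounded. The authors also deposited FPKM and TPM values, per the file headers, and a normalised count signal (not used), with group means (not used). A heat-map table was not used here.

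Counts were tested with edgeR 4.0.16 in R 4.3.3 (TMM scaling, filterByExpr, which removed 4007 genes, quasi-likelihood F test, Benjamini-Hochberg adjustment over 11817 genes, threshold 0.05). SE was computed back from the log2 fold change and the F statistic. CPM is scaled with TMM. FPKM and TPM alternatives used limma 3.58.1 on log2(value + 1), and DESeq2 1.42.0, voom, other scalings and filters, left-out libraries and a replicate block were also run. Calculations and plots used Python 3.11.15, pandas 2.3.3, SciPy 1.17.1 and matplotlib 3.10.9. The procedure was tested on simulated data. Counts of 2 libraries of a group differed by 1.39 to 1.61 in chi-square per gene, against 62.1 to 65.2 between groups, and all 6 were kept as separate samples. Same-numbered libraries did not deviate together (correlations -0.0178, 0.0278 and 0.0193). Gene positions and promoter windows are from RefSeq, GRCm38.p6.

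All 54 members are reported. Other genes are named, at most 4 per list, by the smallest p. The 3 rises of the E2F, pocket protein and S-phase cyclin-CDK list are named in addition. Genes of the marker lists are named to show what a sum rests on. The members and lists were chosen with earlier results of these data known.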

Additional observations from a re-analysis of the deposited data

How the results depend on the processing

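The counts of 24 falls and 16 rises among the 54 genes kept within 1.5 times under another edgeR scaling, other filters, DESeq2 (20 and 12), voom, FPKM and a stricter threshold. The number of rises dropped to 5 on log2(TPM + 1), with and without the filter on low values. With the biological coefficient of variation set to 0.1 the counts were 11 falls and 4 rises, and 4406 genes were called in all; requiring a 1.5-fold change left 4 falls, 1 rise and 2103 genes in all. Leaving out 1 library at a time gave 21 to 23 falls, 14 to 16 rises, 7755 to 7935 calls over all genes and a log2 fold change of Men1 from -1.975 to -1.893. Under the replicate block the counts were 24 falls and 16 rises, and no paired design is stated for these libraries. Among members called on either scale, these turned sign on log2(TPM + 1): Orc3 to -0.166, Mcm2 to -0.011, Mcm3 to -0.031, Mcm4 to -0.090, Mcm5 to -0.017, Gins2 to -0.111, Pola2 to -0.017, Pole to -0.003, Pole4 to -0.120 and Lig1 to -0.130, with and without the filter, and Gmnn to -0.142 with it. With the filter, the median of all genes was at -0.12 on that scale. After subtracting it, Mcm2, Mcm3, Mcm4, Mcm5, Gins2, Pola2 and Pole were above 0. Orc3, Gmnn, Pole4 and Lig1 were then at -0.047, -0.022, -0.0008 and -0.010. The cause of the shift of all genes was not tested. Genes with few counts, such as Pole3 and Rpa3, have errors among the widest, so small changes in them were not detectable at this depth.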
